A study of Bos taurus with 6 samples.

Results

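The proteasome genes of bovine articular cartilage were followed across 3 depths of the tissue. They were taken as all genes whose symbol on the array starts with PSMA to PSMG followed by a digit. This gave 45 genes from 55 probesets, of 11636 named genes on the array, and the probeset with the highest mean over all arrays stood for each gene. They comprised 7 PSMA genes, 7 standard PSMB genes, the 3 inducible genes PSMB8, PSMB9 and PSMB10, 6 PSMC genes, 14 PSMD genes, 3 PSME genes, PSMF1 and 4 PSMG genes. PSMA8, PSMB11 and PSME3 were not analysed here.

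The study compared the superficial zone (SZ), the middle zone (MZ) and the deep zone (DZ) of normal (grade 1) cartilage of the femoral condyles of the knee from 2 skeletally mature cattle aged 14 to 30 months. Both animals, bov1 and bov4, gave 1 array per zone, so each zone has 2 arrays and 6 arrays were measured in all. SZ was the upper 10% of the 50 µm sections, MZ the middle 40% and DZ the lower 30% down to the calcified cartilage, with about 200 µm thrown away between them. The labels name no treatment, and 5 ng of RNA from each zone was amplified before hybridisation.

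The proteasome is the barrel-shaped protease that degrades proteins tagged with ubiquitin. Its core is built from rings of PSMA subunits around rings of PSMB subunits, and the PSMB rings hold the catalytic sites. A cap of PSMC ATPases and PSMD subunits recognises, unfolds and feeds in substrates, while PSME proteins form other caps and PSMG proteins help to assemble the core. Interferon and immune cells favour the inducible catalytic subunits PSMB8, PSMB9 and PSMB10, which take the places of PSMB5, PSMB6 and PSMB7 and favour the making of peptides for class I antigen presentation. Chondrocytes, the resident cells of cartilage, use the proteasome as most cells do.

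The values are log2 expression values, with array medians between 4.42 and 4.46 and lower quartiles between 2.71 and 2.87. Arrays correlated pairwise with r of 0.916 to 0.972 across probesets. The chondrocyte genes COL2A1, ACAN and COMP lay between 12.12 and 14.15 on all 6 arrays, and of 8 chondrocyte markers CNMD alone was called, lower in SZ than in DZ. The Bacillus spike-in probesets, whose RNA is added during preparation, had medians of 5.88 and 6.24 in SZ, 4.90 and 4.17 in MZ, and 3.61 and 3.56 in DZ, and their part in the results was not tested. A code at the start of the array names is shared by SZ and MZ and differs in DZ, so whatever it records and the deep zone cannot be told apart. In bulk RNA, fewer cells of a type and less RNA per cell cannot be told apart either. The number of arrays limits the precision of every value below.

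The median absolute difference of the 45 proteasome genes between 2 zones was 0.16 to 0.24 log2 units, and none passed an adjusted p of 0.05 in limma in any comparison. With 2 arrays per zone, the lack of calls does not show equal values. MZ was below DZ in the fitted difference for 37 of the 45 genes, and in both animals for 20. The furthest apart were the inducible subunits PSMB8 and PSMB9, highest in DZ in both animals, and the alternative cap gene PSME4, lowest in SZ in both animals. Of all 24016 probesets, 0.0416% were called between SZ and MZ, 2.75% between SZ and DZ, 0.704% between MZ and DZ, and 1.84% in the F test of any difference between the 3 zones. An unadjusted p under 0.05 was reached by 1 proteasome gene (PSME4) in SZ against MZ, or 2.22%, where 8.84% of all probesets reached it. In SZ against DZ it was reached by 5 (PSMB8, PSMB9, PSMD2, PSME4 and PSMG4), or 11.1%, beside 17.6% of all probesets. In MZ against DZ it was reached by PSMB8 and PSMB9, or 4.44%, beside 9.93%, and in the F test by 4 (PSMB8, PSMB9, PSMD2 and PSME4), beside 14.3%. PSMB8 had the lowest adjusted p of the members in SZ against DZ (0.131), MZ against DZ (0.117) and the F test (0.111), and PSME4 had it in SZ against MZ (0.476).

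**Figure D1:**
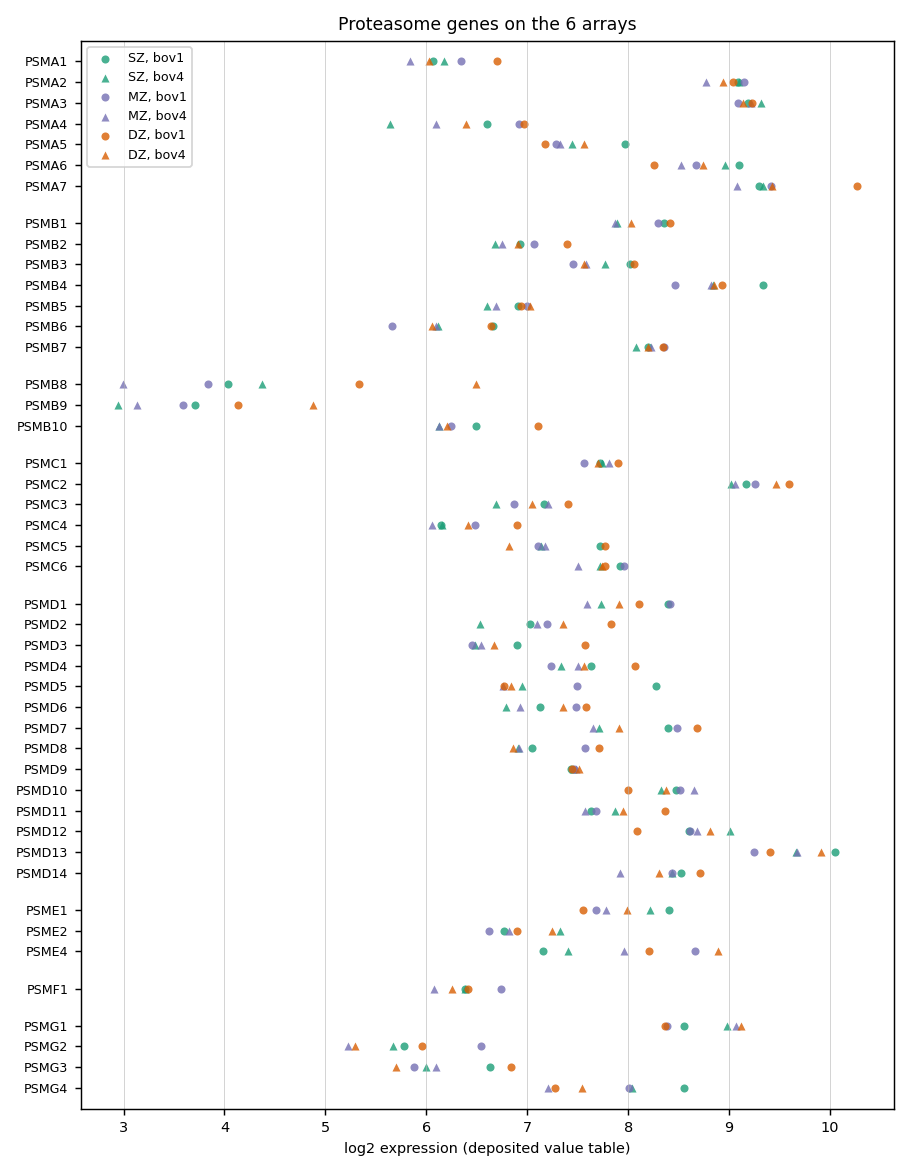
Log2 expression (horizontal axis) of the 45 proteasome genes (rows) on the 6 arrays; colour gives the zone, circles stand for animal bov1 and triangles for bov4. Most genes have their 6 points within about 1 log2 unit, and PSMB8 has the widest range, 3.51.

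The standard catalytic subunits PSMB5, PSMB6 and PSMB7 carry the chymotrypsin-like, caspase-like and trypsin-like activities. PSMB5 had log2 values of 6.91 in bov1 and 6.60 in bov4 in SZ, 6.99 and 6.69 in MZ, and 6.93 and 7.02 in DZ. PSMB6 was at 6.66 and 6.11 in SZ, 5.66 and 6.09 in MZ, and 6.64 and 6.06 in DZ. For PSMB7 the values were 8.19 and 8.07 in SZ, 8.35 and 8.22 in MZ, and 8.35 and 8.19 in DZ. The DZ arrays overlapped the SZ arrays for PSMB6 and PSMB7, and the lower PSMB5 value in DZ was just above the higher one in SZ. The fitted SZ minus DZ differences were -0.23 (95% interval -0.81 to 0.36) for PSMB5, 0.03 (-0.75 to 0.81) for PSMB6 and -0.14 (-0.67 to 0.40) for PSMB7.

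The inducible subunit PSMB8, which replaces PSMB5, had log2 values of 4.03 and 4.37 in SZ, 3.84 and 2.99 in MZ, and 5.34 and 6.50 in DZ (bov1 and bov4 in each zone). Both DZ arrays lay above every other array, and both MZ arrays lay below both SZ arrays. Its mean was 4.20 ± 0.24 in SZ, 3.41 ± 0.60 in MZ and 5.92 ± 0.82 in DZ (mean ± SD over the 2 animals, n = 2). PSMB8 was 3.28-fold lower in SZ than in DZ (log2 difference -1.72, SE 0.46, 95% interval -2.84 to -0.59, limma adjusted p = 0.131). It was 5.66-fold lower in MZ than in DZ (-2.50, SE 0.46, -3.63 to -1.38, limma adjusted p = 0.117). The PSMB8 difference SZ minus DZ was -1.01 without the DZ array of bov4 and -2.42 without that of bov1, and MZ minus DZ ran from -3.30 to -1.70 with 1 array left out. Both animals gave the same direction: MZ minus DZ was -1.50 in bov1 and -3.51 in bov4. The lowest value, 2.99 in MZ of bov4, was close to the lower quartile of that array.

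PSMB9, which replaces PSMB6, had log2 values of 3.71 and 2.94 in SZ, 3.59 and 3.13 in MZ, and 4.13 and 4.88 in DZ. Both DZ arrays were above the other 4, and the SZ and MZ arrays overlapped each other near the dim end of the array. The differences were -1.18 for SZ minus DZ (SE 0.39, 95% interval -2.13 to -0.23, limma adjusted p = 0.198) and -1.14 for MZ minus DZ (SE 0.39, -2.09 to -0.20, limma adjusted p = 0.407). For PSMB9, SZ minus DZ was -0.43 in bov1 and -1.93 in bov4. Without the DZ array of bov4 the PSMB9 differences from DZ were -0.50 for SZ and -0.47 for MZ, and without that of bov1 they were -1.86 and -1.82. PSMB10, which replaces PSMB7, had 6.50 and 6.12 in SZ, 6.25 and 6.13 in MZ, and 7.10 and 6.20 in DZ. Only bov1 set its DZ array clearly apart: SZ minus DZ was -0.61 in bov1 and -0.08 in bov4, with a fitted difference of -0.34 (95% interval -1.01 to 0.32). PSMB10 has a dimmer second probeset, which gave -0.27.

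**Figure D2:**
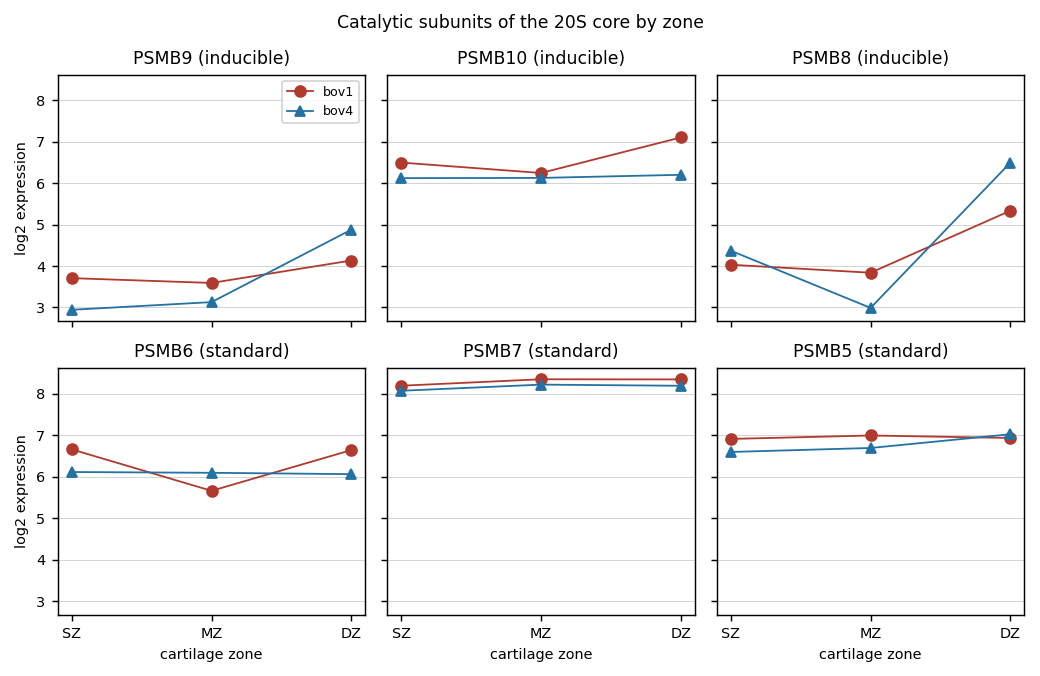
Log2 expression (vertical axis) of the inducible subunits PSMB8, PSMB9 and PSMB10 and of the standard subunits PSMB5, PSMB6 and PSMB7 they replace, by zone, with 1 line per animal. The inducible genes are highest in DZ in both animals, PSMB10 only narrowly in bov4 (MZ minus DZ -0.07, and -0.86 in bov1). The standard genes differ by at most 1.00 within an animal, which is more than PSMB10 does.

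Because each probeset has its own brightness, the difference between an inducible and a standard subunit was read only between zones. PSMB8 minus PSMB5 was -2.88 and -2.23 in SZ, -3.15 and -3.70 in MZ, and -1.60 and -0.53 in DZ. The groups did not overlap, and both DZ arrays had the least negative values. PSMB9 minus PSMB6 was -2.95 and -3.17 in SZ, -2.07 and -2.96 in MZ, and -2.51 and -1.18 in DZ, so MZ overlapped both other zones while SZ lay below DZ. PSMB10 minus PSMB7 was -1.70 and -1.95 in SZ, -2.11 and -2.09 in MZ, and -1.24 and -1.99 in DZ. SZ and DZ overlapped there. An exact permutation test of 2 arrays against 2 cannot go below p = 0.333, so no p was read from these values.

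Of the other core genes, the 7 PSMA genes form the outer rings and gate the entry to the barrel. Their SZ minus DZ differences lay between -0.55 and 0.53, with a median of 0.07. PSMA4, at the low end, had 6.61 and 5.64 in SZ, 6.92 and 6.10 in MZ, and 6.96 and 6.39 in DZ. PSMA6, at the high end, had 9.10 and 8.96 in SZ, 8.67 and 8.53 in MZ, and 8.26 and 8.75 in DZ. The 3 zones overlapped for PSMA4, with bov1 above bov4 in each, while both SZ values of PSMA6 were above the other 4. The adjusted p was at least 0.296 for every PSMA gene and comparison.

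PSMB2 and PSMB4 are structural subunits of the inner rings, PSMB1 and PSMB3 likewise. PSMB2 had 6.93 and 6.68 in SZ, 7.06 and 6.75 in MZ, and 7.39 and 6.91 in DZ. PSMB4 had 9.33 and 8.84 in SZ, 8.46 and 8.82 in MZ, and 8.93 and 8.85 in DZ. These were the lowest and highest SZ minus DZ differences of the 7 standard PSMB genes, -0.35 and 0.20, and for both genes the SZ and DZ arrays overlapped. PSMB2 has a second probeset with a difference of -0.35 as well.

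The 6 PSMC genes encode the ring of ATPases that unfolds substrates. Their SZ minus DZ differences ran from -0.50 to 0.13. PSMC4 had 6.15 and 6.15 in SZ, 6.48 and 6.06 in MZ, and 6.90 and 6.41 in DZ, the lowest SZ minus DZ difference of the class (-0.50, 95% interval -1.10 to 0.09). PSMC5 had 7.72 and 7.14 in SZ, 7.10 and 7.18 in MZ, and 7.77 and 6.82 in DZ, the highest (0.13). Both PSMC4 arrays of DZ lay above both of SZ, while the PSMC5 arrays overlapped. The probesets of 1 gene did not always run together: PSMC6 had an SZ minus DZ difference of 0.07 on the probeset used and 0.96 on a dimmer one, and PSMC5 had -0.34 on its dimmer one, none with an adjusted p under 0.05.

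The 14 PSMD genes hold the scaffolds, the ubiquitin receptor PSMD4, the deubiquitinating enzyme PSMD14 with its partner PSMD7, the other lid subunits, and the assembly chaperones PSMD5, PSMD9 and PSMD10. The scaffold PSMD2 had 7.02 and 6.54 in SZ, 7.20 and 7.09 in MZ, and 7.83 and 7.35 in DZ. Its 3 zones did not overlap, in the order SZ, MZ, DZ from low to high. The SZ minus DZ difference of PSMD2 was -0.81 (SE 0.24, 95% interval -1.39 to -0.23, limma adjusted p = 0.155), -0.80 in bov1 and -0.81 in bov4. The chaperone PSMD5 lay at the other end, with 8.27 and 6.95 in SZ, 7.49 and 6.76 in MZ, and 6.77 and 6.84 in DZ. Its SZ minus DZ difference of 0.81 (95% interval -0.06 to 1.68, limma adjusted p = 0.314) was 1.50 in bov1 and 0.11 in bov4, and ran from 0.26 to 1.35 with 1 array left out. PSMD9 varied least of all 45 genes, with 6 values within 0.07 of each other. PSMD4 had 7.64 and 7.34 in SZ, 7.24 and 7.50 in MZ, and 8.07 and 7.56 in DZ. SZ minus DZ was -0.33 on that probeset of PSMD4 and -0.69 on its second one.

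The activator genes of the PSME class encode caps that open the core without the ATPases. PSME4 had 7.16 and 7.40 in SZ, 8.66 and 7.96 in MZ, and 8.21 and 8.89 in DZ. Both SZ arrays were below the other 4, and MZ and DZ overlapped. PSME4 was 2.04-fold lower in SZ than in MZ (-1.03, SE 0.36, 95% interval -1.90 to -0.15, limma adjusted p = 0.476) and 2.40-fold lower in SZ than in DZ (-1.27, SE 0.36, -2.14 to -0.39, limma adjusted p = 0.145). SZ minus MZ for PSME4 was -1.50 in bov1 and -0.56 in bov4, and it was -0.45 without the MZ array of bov1 and -1.61 without that of bov4. Its SZ minus DZ difference was -1.72 without the DZ array of bov1 and -0.81 without that of bov4. PSME1, whose product joins that of PSME2 in one cap, had 8.40 and 8.22 in SZ, 7.68 and 7.78 in MZ, and 7.56 and 7.99 in DZ. It lay opposite to PSME4, with both SZ arrays above the other 4 and an SZ minus DZ difference of 0.54 (95% interval -0.08 to 1.15), which ran from 0.30 to 0.78 with 1 array left out and was 0.35 with the dCHIP matrix. PSME2 had an SZ minus DZ difference of -0.02, although it lies 1 coding gene from PSME1 in RefSeq's gene order.

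PSMF1, an inhibitor of the core in vitro, had 6.39 and 6.39 in SZ, 6.73 and 6.08 in MZ, and 6.41 and 6.25 in DZ, with no order between zones. Among the 4 core assembly chaperones, PSMG1 had 8.56 and 8.97 in SZ, 8.38 and 9.07 in MZ, and 8.36 and 9.12 in DZ. Bov4 was above bov1 in every zone, while the zone differences of PSMG1 lay between -0.01 and 0.04. PSMG4 had 8.55 and 8.04 in SZ, 8.01 and 7.21 in MZ, and 7.27 and 7.54 in DZ. Both SZ arrays of PSMG4 were above the other 4, and SZ minus DZ was 0.89 (95% interval 0.12 to 1.65, limma adjusted p = 0.223). That difference of PSMG4 was 0.49 with the dCHIP matrix, 0.42 without the DZ array of bov1 and 1.35 without that of bov4. A much dimmer second probeset of PSMG4 gave -0.09, so the 2 probesets disagree, and their average gave 0.40.

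**Figure D3:**
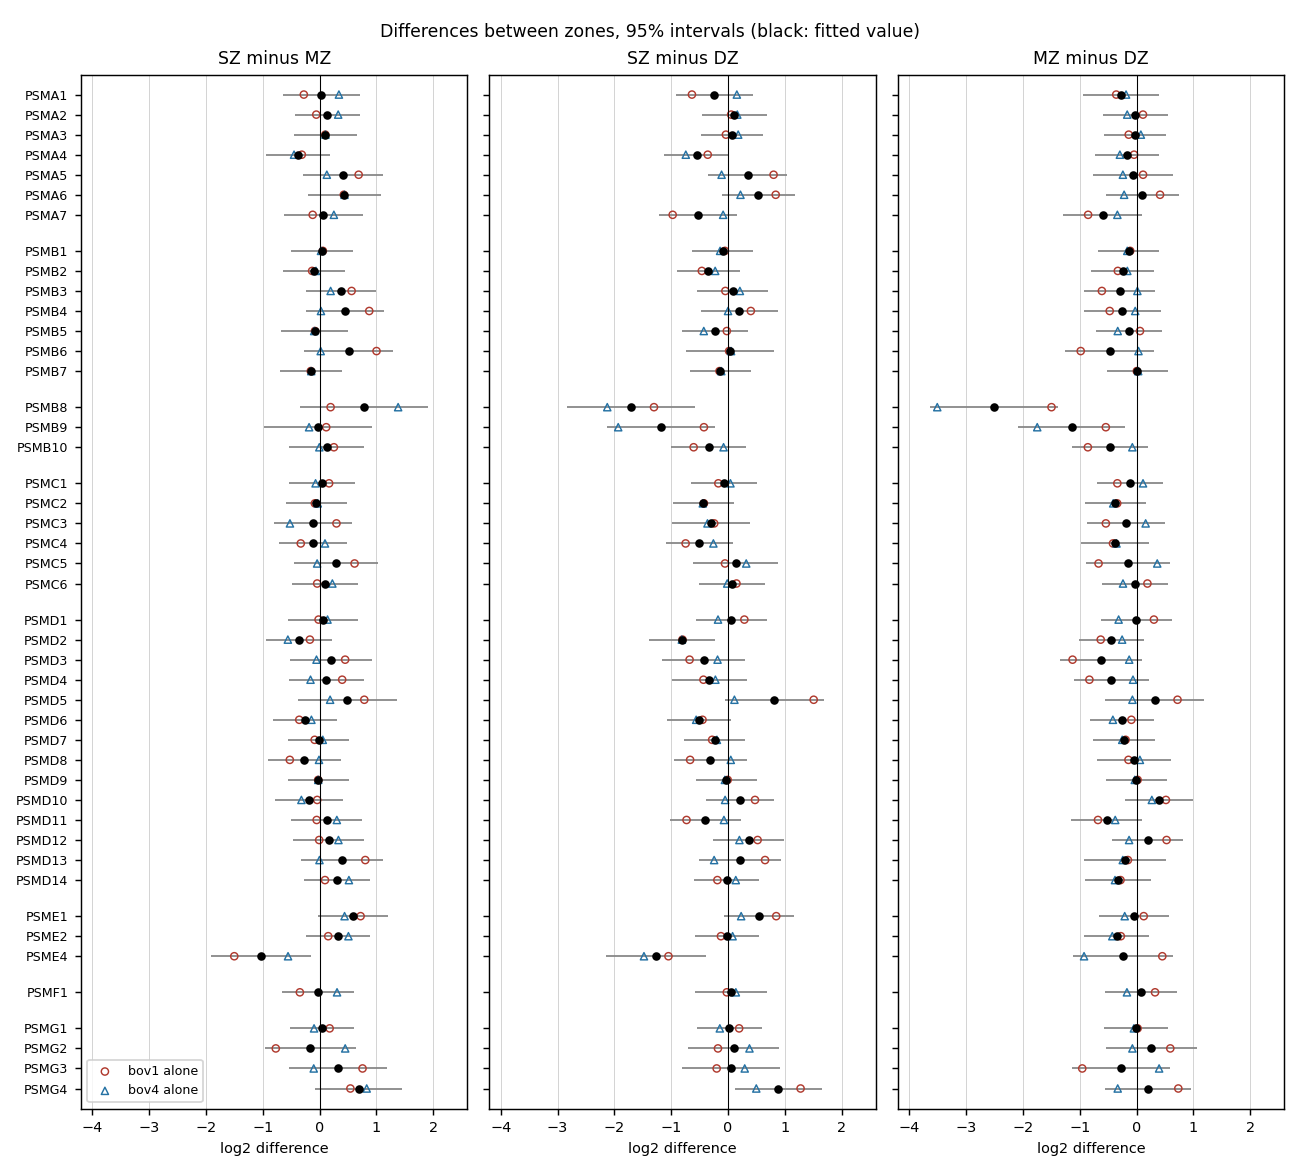
Fitted log2 differences (horizontal axis) of the 45 genes for SZ minus MZ, SZ minus DZ and MZ minus DZ, with 95% intervals; open markers give each animal. Intervals of PSMB8 and PSMB9 lie left of 0 in both comparisons with DZ. In SZ minus DZ those of PSMD2 and PSME4 also lie left of 0, and that of PSMG4 lies right of 0. In SZ minus MZ that of PSME4 lies left of 0. No gene passes the adjusted threshold.

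The median absolute difference of the 45 genes was 0.16 between SZ and MZ, 0.24 between SZ and DZ and 0.24 between MZ and DZ, beside 0.22, 0.30 and 0.24 over all probesets. All 34 PSMA, standard PSMB, PSMC and PSMD genes were within ±1 log2 unit in each comparison. The 95% interval lay within ±1 for 33, 29 and 32 of the 45 genes, which is 73.3%, 64.4% and 71.1%, against 62.1%, 52.0% and 60.7% of all probesets. For the remaining genes the interval reached a 2-fold difference or more.

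The signed median difference of the members was 0.06 for SZ minus MZ, -0.03 for SZ minus DZ and -0.19 for MZ minus DZ, against 0.00, 0.06 and 0.06 over all probesets. The first changed sign with the dCHIP matrix (-0.02) and the second with quantile normalisation (0.01), whereas the third was negative in every setting tried. Among the 12008 probesets brighter than the median, which hold 44 of the members, the medians were -0.03 for the members and -0.05 for all in SZ minus DZ, and -0.18 for the members and 0.001 for all in MZ minus DZ. The members were thus not below the brighter probesets in SZ minus DZ. MZ was below DZ for 37 of 45 genes (82.2%, against 42.9% of all probesets), among them 6 of 7 PSMA genes, 6 of 7 standard PSMB genes, all 3 inducible genes, all 6 PSMC genes, 11 of 14 PSMD genes, all 3 PSME genes and 2 of 4 PSMG genes. Those counts are of the fitted difference. In both animals MZ was below DZ for 20 of the 45 genes, beside 5915 of 24016 probesets. The 20 were 3 PSMA, 3 standard PSMB, 3 inducible, 2 PSMC, 8 PSMD and 1 PSME gene. The 2 animals gave the same direction for 22 of the 45 genes, beside 14257 of 24016 probesets. Genes of a complex are not independent of each other, and the counts carry no test.

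**Figure D4:**
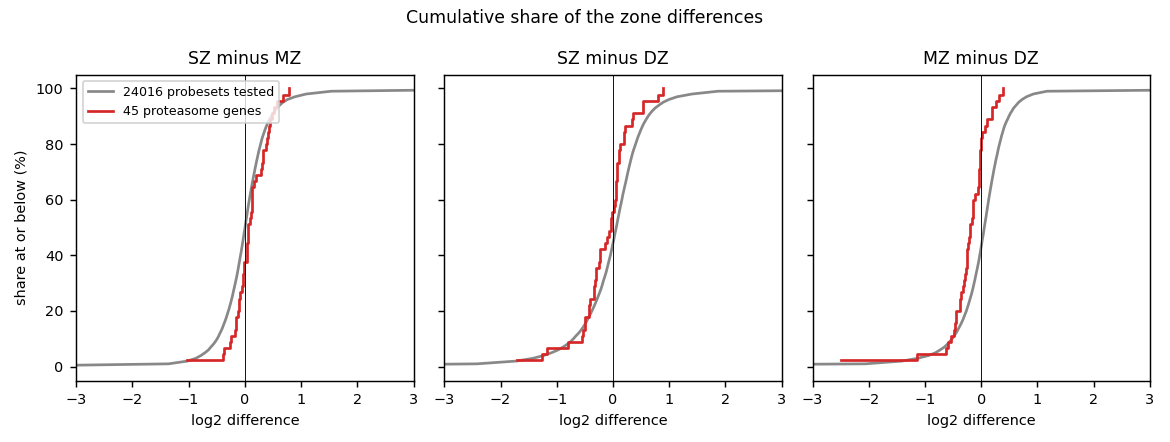
Cumulative share (vertical axis, percent) of the log2 zone differences (horizontal axis) for the 45 proteasome genes and for the 24016 probesets tested, in 3 panels. In the MZ minus DZ panel the curve of the members lies left of that of all probesets, with medians of -0.19 and 0.06.

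Arrays of 2 zones did not overlap for 14 genes between SZ and MZ (9 higher and 5 lower in SZ), for 15 between SZ and DZ (5 higher and 10 lower in SZ) and for 11 between MZ and DZ (1 higher and 10 lower in MZ). These are 31.1%, 33.3% and 24.4% of the members, beside 35.2%, 45.5% and 38.0% of all probesets. In MZ against DZ, 22.2% of the members and 15.2% of all probesets were lower without overlap, and 2.22% of the members and 22.7% of all probesets were higher. In SZ against DZ, 22.2% of the members and 19.1% of all probesets were lower, and 11.1% and 26.3% were higher. In SZ against MZ, 5 members (11.1%) and 17.5% of all probesets were lower, and 9 members (20%) and 17.7% of all probesets were higher. The 10 genes lower in MZ were PSMA7, PSMB4, PSMB8, PSMB9, PSMC2, PSMD2, PSMD3, PSMD4, PSMD11 and PSME2, and the 1 that was higher was PSMD10, an assembly chaperone. The 10 genes lower in SZ than in DZ were PSMA7, PSMB5, PSMB8, PSMB9, PSMC2, PSMC4, PSMD2, PSMD6, PSMD11 and PSME4. The 5 that were higher in SZ were PSMA2, PSMA6, PSMD5, PSME1 and PSMG4.

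Within each animal, DZ was the highest zone in both animals for 15 of 45 genes (33.3%, against 14.8% of all probesets). These include all 3 inducible genes, PSMB10 only narrowly in bov4 (MZ minus DZ -0.07). Of the members, 44 are among the 12008 brighter probesets, and the order of zones was not counted over those alone. DZ was the lowest zone in both animals for 0 of 45, against 21.4% of all probesets. SZ was highest in both animals for 5 genes (PSMA6, PSMB6, PSMD5, PSME1 and PSMG4), and MZ for 2 (PSMB7 and PSMD10). The shares of all probesets for these were 17.2% and 10.9%. SZ was lowest in both animals for 9 of 45 genes (14.9% of all probesets) and MZ for 5 (8.36%). The 2 animals put the same zone highest for 22 of 45 genes, 48.9% beside 42.9% of all probesets. They put the same zone lowest for 14 (31.1%, beside 44.7%) and gave the same order of all 3 zones for 8, where 25.0% of all probesets did.

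The median absolute difference of bov1 and bov4 was 0.31 in SZ, 0.34 in MZ and 0.48 in DZ over the 45 genes. Bov1 was higher in all 3 zones for 14 genes (31.1%, against 17.9% of all probesets), for example PSMD7 by 0.69, 0.83 and 0.77 and PSMA4 by 0.96, 0.82 and 0.58 in SZ, MZ and DZ. Bov4 was higher in all 3 zones for PSMD9, PSMD12, PSME2 and PSMG1 (8.89%, against 16.3%).

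The genes around the proteasome gave no called member either: 0 of 14 assembly factors, 0 of 9 transcription regulators, 0 of 12 ubiquitin genes, 0 of 11 shuttling genes, 0 of 11 class I genes, 0 of 22 interferon genes and 0 of 18 autophagy and lysosome genes passed in limma in each comparison of zones. At an unadjusted p under 0.05 the counts in SZ against DZ were 1 of 14, 4 of 9, 1 of 12, 0 of 11, 3 of 11, 7 of 22 and 3 of 18 in that order of lists, beside 17.6% of all probesets. In MZ against DZ they were 0, 1, 1, 0, 2, 8 and 1 of the same lists, beside 9.93%. In SZ against MZ they were 2, 2, 0, 0, 4, 6 and 2, beside 8.84%. The median SZ minus DZ difference was 0.12 for the assembly factors, of which 8 of 14 are proteasome genes themselves, 0.41 for the regulators, 0.01 for the ubiquitin genes, -0.09 for the shuttling genes and 0.03 for the autophagy and lysosome genes, beside 0.06 over all probesets. POMP, the chaperone that matures the core, had 9.98 and 9.51 in SZ, 9.23 and 9.14 in MZ, and 9.73 and 9.47 in DZ. The transcription factor NFE2L1, which raises proteasome genes when the proteasome is inhibited, had 9.05 and 9.17 in SZ, 8.50 and 9.08 in MZ, and 8.68 and 8.72 in DZ. NFE2L2, the oxidative stress regulator, had 7.26 and 7.55 in SZ, 7.38 and 7.38 in MZ, and 6.15 and 6.85 in DZ. Both DZ arrays of NFE2L2 were below the other 4 (SZ minus DZ 0.90, SE 0.26, limma adjusted p = 0.150).

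Class I and interferon genes were set beside PSMB8 and PSMB9. In RefSeq's gene order TAP1, a peptide transporter subunit, lies between PSMB8 and PSMB9 with no coding gene between them. TAP1 had 2.85 and 2.45 in SZ, 2.39 and 2.98 in MZ, and 3.21 and 4.04 in DZ, so both DZ arrays were highest (SZ minus DZ -0.97, SE 0.34, limma adjusted p = 0.224). The TAP1 values in SZ and MZ were at the dim end of the array. TAP2, with 1 coding gene between it and PSMB8, had DZ arrays that overlapped those of SZ. B2M, the light chain of class I molecules, had 10.62 and 10.97 in SZ, 9.74 and 10.00 in MZ, and 10.77 and 11.63 in DZ. MZ minus DZ was -1.33 for B2M (SE 0.26, limma adjusted p = 0.128). Over the 11 class I genes the median difference was -0.04 for SZ minus DZ and -0.28 for MZ minus DZ. Over the 22 interferon genes it was -0.16 for SZ minus DZ and -0.43 for MZ minus DZ, against 0.06 over all probesets in both. IRF1, an interferon-induced activator, had 3.96 and 4.33 in SZ, 3.47 and 3.21 in MZ, and 4.20 and 4.88 in DZ. Both MZ arrays of IRF1 were below the other 4.

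Markers of several other cell types were called higher in DZ, where PSMB8 and PSMB9 had their highest values. Of 17 leukocyte and macrophage markers, AIF1, BOLA-DRA, CD74, LYZ and PTPRC were called lower in SZ than in DZ, where 1.72% of all probesets were. Of the 17, AIF1, BOLA-DRA, CD74 and PTPRC were called lower in MZ than in DZ, where 0.612% of all probesets were. Their summed linear level was 203 to 212 in SZ, 177 to 183 in MZ and 750 to 809 in DZ. PTPRC, the pan-leukocyte gene, had 2.18 and 2.25 in SZ, 2.12 and 2.13 in MZ, and 4.84 and 4.92 in DZ, under the lower quartile of the array in SZ and MZ. On both arrays of a zone, 4 of the 17 markers were under the lower quartile in SZ, 6 in MZ and 3 in DZ. Of 13 endothelial markers, KDR, PECAM1 and TEK were called lower in SZ than in DZ. KDR and TEK were also called lower in MZ than in DZ. The summed level of the 13 was 857 and 705 in SZ, 392 and 671 in MZ, and 585 and 1693 in DZ. By this sum, DZ of bov1 was below both SZ arrays. The mean log2 value of the 13 was 4.002 and 3.984 in SZ, 3.766 and 3.816 in MZ, and 4.949 and 6.207 in DZ. By that mean, both DZ arrays were above the other 4. The median difference of the 13 was -1.19 for SZ minus DZ and -1.44 for MZ minus DZ. KDR, a defining endothelial receptor, was under the lower quartile in SZ and MZ. Of 5 osteoclast markers, ACP5 and ITGB3 were called lower in SZ than in DZ and also lower in MZ than in DZ. The sums of the 5 were 308 to 356 in SZ, 318 to 372 in MZ and 2476 to 3672 in DZ. Of 6 osteoblast and osteocyte markers 5 were called lower in SZ than in DZ, and 4 were called lower in MZ than in DZ. The sums of the 6 were 144 to 911 in SZ, 134 to 214 in MZ and 15305 to 22410 in DZ. Of 7 red cell markers 0 were called (1 at an unadjusted p under 0.05 in SZ against DZ), and their sums were 75.5 and 88.2 in SZ, 63.6 and 71.0 in MZ, and 59.0 and 57.8 in DZ. Of 8 synovial markers 2 were called lower in SZ than in DZ, while their sums were 9562 and 9053 in SZ, 9178 and 10963 in MZ, and 5675 and 8217 in DZ. The sums of these last 2 lists were lowest in DZ, unlike PSMB8 and PSMB9. For the synovial list the median log2 difference of the markers went the other way from the sum. It was -1.196 for SZ minus DZ and -0.816 for MZ minus DZ, so the typical synovial marker was higher in DZ. For the red cell list these medians were 0.458 and 0.245. Within DZ, PSMB8 and PSMB9 were higher in bov4. The endothelial sum (585 in bov1 and 1693 in bov4), the osteoblast and osteocyte sum (15305 and 22410) and the synovial sum (5675 and 8217) were higher in bov4 too. The leukocyte sum (809 in bov1 and 750 in bov4), the osteoclast sum (3672 and 2476) and the red cell sum (59.0 and 57.8) were lower in bov4. The part of these cells in the PSMB8 and PSMB9 values was not tested.

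**Figure D5:**
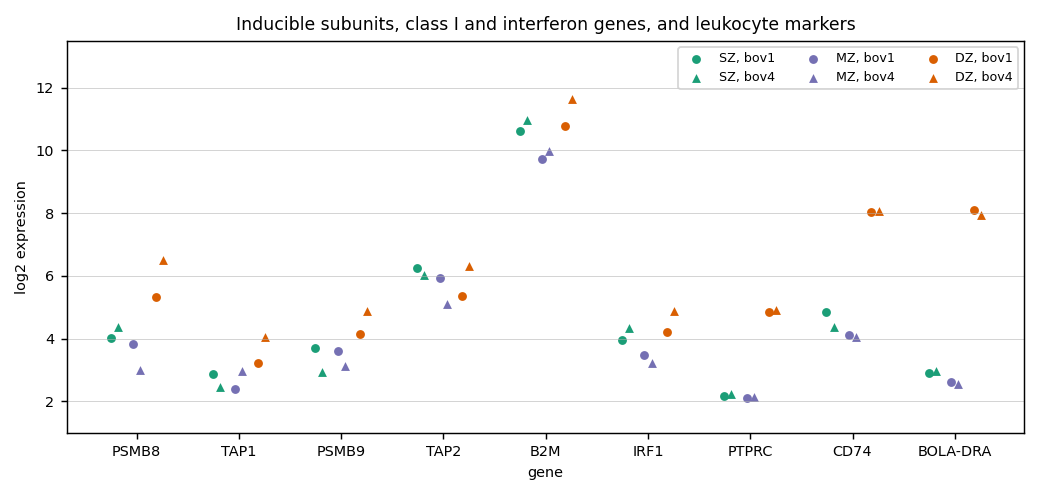
Log2 expression (vertical axis) on the 6 arrays of PSMB8, PSMB9, class I and interferon genes and 3 leukocyte markers (horizontal axis); colour gives the zone, circles bov1 and triangles bov4. PSMB8, PSMB9 and TAP1 and the leukocyte markers PTPRC, CD74 and BOLA-DRA have both DZ arrays above the other 4, whereas those of TAP2, B2M and IRF1 overlap SZ.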

How the data were processed

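Each zone of 2 animals was measured on 1 Affymetrix bovine array. The authors deposited log2 values per probeset and array, made with RMA per the submitters' processing notes (no version), and a second log2 matrix whose name carries dCHIP, which also gave the symbols. Background settings and genome build are not given in the sources used here. Of 24128 probesets, 112 controls were left out and 24016 were tested, unfiltered. All arrays were fitted in limma 3.58.1 (R 4.3.3) with zone and animal as terms (2 residual and 4.15 prior degrees of freedom). Two-sided p-values were adjusted by Benjamini-Hochberg over all probesets, and adjusted p under 0.05 was called. The spread behind each p-value is how far the zone differences disagreed between the 2 animals, drawn toward the spread typical of all probesets. Per the labels, a replicate number marks 1 animal; animal differences correlated between zones with r of 0.216 to 0.346. Fitted differences are the zone named first minus the other. The members and lists were chosen with earlier results of these data known. Values on every array were given for PSMB5 to PSMB10, for each class's highest and lowest SZ minus DZ difference, and for set pathway genes, some of which are not reported here. PSMA8, PSMB11 and PSME3 have no probeset named here. All 45 symbols were found in RefSeq (ARS-UCD2.0). Promoter motifs were not analysed here. The script was tested on simulated data. Alternatives were the dCHIP matrix, no replicate block, quantile and median scaling, a brightness filter, averaged probesets, another prior and leaving out each array.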

Additional observations from a re-analysis of the deposited data

How the results depend on the processing

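The count of proteasome genes called was 0 under every setting except 2. With the dCHIP matrix it was 1, PSMB8, in SZ against DZ (-1.37, limma adjusted p = 0.0357), in MZ against DZ (-1.78, adjusted p = 0.0338) and in the F test (adjusted p = 0.0307). Among the 12008 probesets brighter than the median it was 1, PSMB8, in MZ against DZ (-2.50, limma adjusted p = 0.0268) and in the F test (adjusted p = 0.0260). Of all 24016 probesets, the dCHIP matrix called 1262 in SZ against DZ, 259 in MZ against DZ and 828 in the F test. Of the 12008 brighter ones, 181 were called in MZ against DZ and 636 in the F test. Over all settings the adjusted p of PSMB8 ran from 0.036 to 0.403 in SZ against DZ and from 0.027 to 0.362 in MZ against DZ, with a negative difference throughout. The fit with no replicate block called 0 members and left the differences as they were. The median difference of the members in MZ minus DZ was -0.13 with quantile normalisation, -0.18 with median centring and -0.23 to -0.16 with 1 array left out. In SZ minus DZ it was -0.16 with dCHIP and -0.15 to -0.032 with 1 array left out, and in SZ minus MZ -0.021 with dCHIP and 0.034 to 0.11 with 1 array left out. With dCHIP the zone difference of PSMB10 minus PSMB7 in SZ against MZ was -0.090, of PSMB8 minus PSMB5 in SZ against DZ -1.05, and of PSMB9 minus PSMB6 in SZ against MZ 0.29, and 1 gene had DZ lowest in both animals. The cause was not tested. Over all probesets, SZ against DZ called 660, against 1262 with dCHIP, 295 with no replicate block, 248 without SZ replicate 1, 337 without DZ replicate 1 and 204 without DZ replicate 2. MZ against DZ called 169, against 259 with dCHIP, 62 with no replicate block, 272 with another prior, 80 with averaged probesets, 258 without either SZ array, 46 without MZ replicate 1, 12 without MZ replicate 2 and 74 without DZ replicate 2. SZ against MZ called 10, against 0 to 180, with 0 on leaving out any 1 SZ or MZ array. The F test called 443, against 154 to 828. Neither table has detection calls, so values near the dim end of the array, such as those of PSMB9 and TAP1 in SZ and MZ, may understate a difference.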
